A study of Sus scrofa with 3 samples.

Results

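Chemokines are small secreted proteins that direct the movement of leukocytes through receptors of the G protein-coupled class. In liver, CXCL9, CXCL10 and CXCL11 are induced by interferon gamma and attract activated T cells and NK cells through CXCR3, CCL2 attracts monocytes through CCR2, and CXCL12 is made constitutively by stromal and endothelial cells and retains leukocytes through CXCR4. The 9 genes described here are 7 ligands (CXCL9, CXCL10, CXCL11, CXCL12, CXCL14, CCL2 and CCL5) and 2 receptors (CCR1 and CXCR4), chosen by symbol out of 34579 annotated features, of which 22945 were mRNA.

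The animals were male Chinese Wuzhishan miniature pigs, 6 to 7 months old when obtained. Every pig received the HFC diet, which is rich in fat and cholesterol. By the study's methods, weeks of acclimation and then of this diet passed before the livers were taken, so the pigs were older by then. The 3 groups were intact males that had a sham operation (IM), surgically castrated males (CM), and castrated males injected weekly with testosterone propionate from the day of castration (CMT). Liver RNA of each group was pooled before library preparation, and each pool was sequenced as 1 poly-A RNA-Seq library. The sample labels give 3 pigs per pool, while the methods of the study describe larger groups and do not say how many pigs entered each pool. No group without the diet was included, so each level was measured on that background.

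With 1 pooled library per group there is no replicate check within these data, they do not show the spread between pigs, and no p-value was computed. The study also reports qRT-PCR on some of these genes, which is not among the values used here. Expression is given as FPKM, a level in sequenced fragments scaled to gene length and to a divisor set for each library. The reads behind a value were recovered from the steps of the FPKM values, and sum to 32197628 (IM), 36126730 (CM) and 25419901 (CMT). The divisors found with them were 2510000, 3420000 and 2040000 fragments. They are not proportional to the reads, since the reads per divisor in CM were 0.823 times and in CMT 0.971 times those in IM. The deposited values are therefore 12.8, 10.6 and 12.5 times as large as an FPKM computed on the recovered reads would be, and a level can be read against other values of these files only. From these reads come the 95% exact intervals of each ratio, which cover counting error only. A gene was called higher or lower when every library gave it 1 FPKM or more and its ratio reached 1.5-fold, which was possible for 15613 mRNA features, the 9 chemokine genes among them. Hepatocyte identity was clear in every library, with albumin (ALB), at an FPKM of 445509 or more, the highest of 8 hepatocyte markers. Liver is a mixture of cell types, so more cells of a type and more mRNA per cell cannot be told apart.

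In CM compared with IM, the comparison that asks what castration does under this diet, 6 of the 9 genes were called higher and none lower. The 6 were the interferon-induced CXCL9, CXCL10 and CXCL11, the monocyte attractant CCL2, the epithelial chemokine CXCL14 and the receptor CCR1. CXCL10 differed most, at 3.21-fold. CCL5, CXCL12 and CXCR4 stayed within 1.5-fold. Over all features tested, 11.1% were called higher and 12.1% lower (23.2% in either direction), and the median log2 ratio was -0.02, against 0.72 over the 9 genes. The balance of calls depends on scaling. When libraries were scaled to equal recovered reads, every log2 ratio of CM to IM moved up by 0.28, 77.4% of all calls were higher instead of 48.0%, and CXCR4 joined the 6 genes as a seventh called higher.

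In CMT compared with CM, which asks what testosterone replacement does in castrated pigs, 5 of the 9 genes were called lower and none higher. These were CXCL9, CXCL10, CCL2, CXCL14 and CCR1. Of all features tested, 13.5% were called lower and 12.1% higher in this comparison (25.7% in either direction), with a median log2 ratio of 0.01, against -0.75 over the 9 genes. The same scaling moved every log2 ratio down by 0.24, made 23.3% of all calls higher instead of 47.3%, and gave 7 of the 9 genes as lower, adding CXCL11 and CCL5. Both comparisons use the same CM library, so a value that is high in CM alone enters both. In CMT compared with IM, where 6.67% of all features were called higher and 10.1% lower (16.8% in either direction), none of the 9 genes was called.

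**Figure D1:**
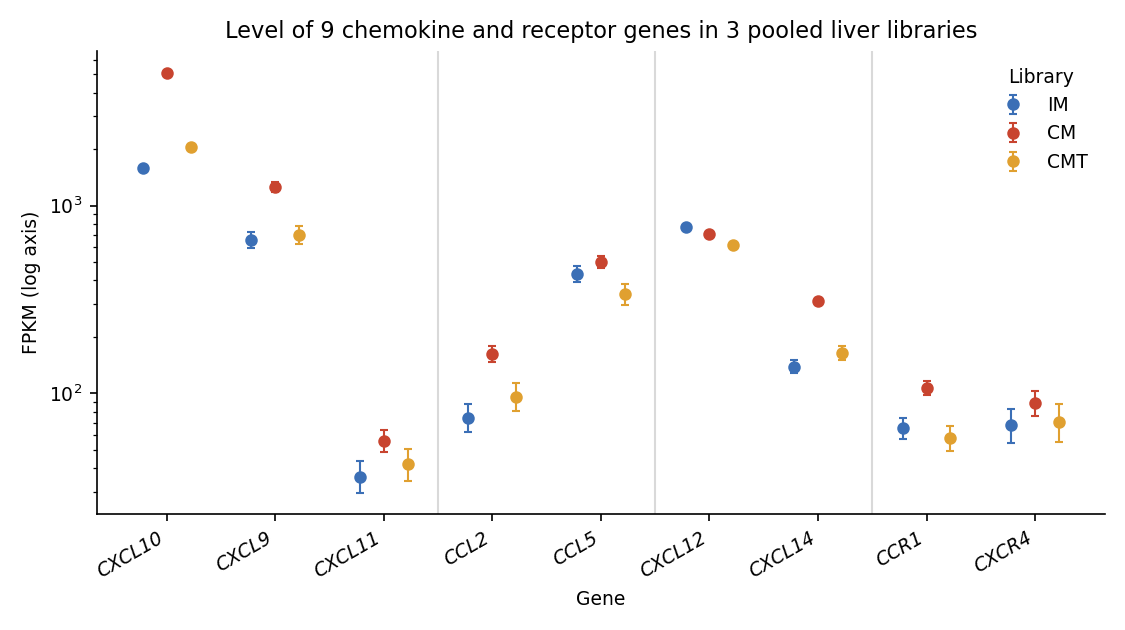
Level of each of the 9 genes in the 3 pooled liver libraries, as FPKM on a log axis. Points are single libraries and bars are 95% exact Poisson intervals of the recovered reads. Vertical lines separate the interferon-induced ligands, the CC ligands, CXCL12 with CXCL14, and the receptors. CXCL10 is the highest gene in every library and reaches 5085 in CM.

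CXCL10 recruits activated T cells and NK cells. Its FPKM was 1582 in IM against 5085 in CM and 2058 in CMT, from 3522, 15426 and 3724 reads. CM stood above both other libraries, and CMT lay between them. The ratio of CM to IM was 3.21 (95% interval 3.099 to 3.34). CMT was 2.47-fold below CM (interval 2.38 to 2.56). The level in CMT was still 1.30 times that of IM (interval 1.24 to 1.36), a difference larger than counting error but under the 1.5-fold criterion. In each library CXCL10 ranked in the top percentiles of mRNA features tested, from percentile 96.0 to 98.6.

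CXCL9 shares the receptor CXCR3 with CXCL10 and depends more strictly on interferon gamma. The FPKM was 657 in the intact, 1257 in the castrated and 702 in the testosterone-treated pool. CM again stood apart, while IM and CMT were close, with a ratio of 1.07 (interval 0.917 to 1.24). The recovered length of this gene, 225 bases, is improbably short, so its reads are understated and its intervals are too wide. CM was 1.91-fold above IM (interval 1.70 to 2.16), and CMT was 1.79-fold below CM (interval 1.58 to 2.04). The level of CXCL10 relative to CXCL9 was 2.41 for IM, with 4.05 for CM and 2.93 for CMT, so the 2 ligands did not keep one proportion.

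CXCL11, the ligand with the highest affinity for CXCR3, was the lowest of the 9 genes in each library. Its FPKM was 36.1 in IM against 55.9 in CM and 41.9 in CMT, from 108, 228 and 102 reads. The order of the libraries was that of CXCL10. The ratio of CM to IM of 1.55 was just past the criterion, with an interval of 1.23 to 1.97. CMT was 1.33-fold below CM (interval 1.05 to 1.70) and was not called. If both mates of each read pair were counted as reads, the interval of CMT to CM widens to 0.528 to 1.05. The FPKM of CXCL10 was 43.9 times that of CXCL11 in the intact, 91.0 times in the castrated and 49.1 times in the testosterone-treated pool.

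CXCR3, the common receptor of these 3 ligands, was within 1.5-fold in each comparison. It had an FPKM of 6.91 for IM, with 6.88 for CM and 5.46 for CMT, from 28, 38 and 18 reads. The ratio of CM to IM was 0.996, with a wide interval of 0.595 to 1.69. As a ratio of FPKM values, CXCL10 was 229 times CXCR3 in IM against 739 times in CM and 377 times in CMT.

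CCL2, also known as MCP-1, draws monocytes out of the blood into tissue. Its FPKM was 74.3 in the intact, 162 in the castrated and 96.1 in the testosterone-treated pool, from 139, 412 and 146 reads. CM was the highest library, and the other two were closer to each other than to CM. The ratio of CM to IM was 2.18 (interval 1.79 to 2.66), and CMT was 1.68-fold below CM (interval 1.39 to 2.05). The level in CMT was 1.29 times that of IM, with an interval from 1.02 to 1.64 that reaches almost to 1.

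CCL5, or RANTES, is released mainly by T cells and NK cells and binds CCR1 among other receptors. It had an FPKM of 433 for IM, with 502 for CM and 337 for CMT, from 404, 639 and 256 recovered reads, numbers that are too low for the same reason as in CXCL9. Here CMT was the library that stood lowest. The ratio of CM to IM was 1.16 (interval 1.02 to 1.32), and CMT was 1.49-fold below CM (interval 1.29 to 1.73), just short of the criterion, which it passed under each of the 4 scalings tried. CMT was also below IM, at a ratio of 0.780 (interval 0.664 to 0.914). Of 14 T and NK cell markers, 9 were called lower in CMT versus CM, and their part in the CCL5 level was not tested.

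CXCL14 is a chemokine of epithelia with no firmly agreed receptor. Its FPKM was 139 in IM against 309.6 in CM and 164 in CMT, from 600, 1820 and 576 reads. CM was 2.23-fold above IM (interval 2.03 to 2.45), the second largest of the 9 ratios after CXCL10. CMT was 1.88-fold below CM (interval 1.72 to 2.07) and 1.18 times IM (interval 1.05 to 1.33).

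CXCL12, the stromal chemokine that holds CXCR4-bearing cells in place, was among the most even of the 9 genes. The FPKM was 769 in the intact, 703 in the castrated and 621 in the testosterone-treated pool, from 6998, 8719 and 4594 reads. With that many reads, the ratio of CM to IM of 0.914 had a narrow interval of 0.886 to 0.944, and CMT was 1.13-fold below CM. No comparison reached 1.5-fold. The sign of CM versus IM depends on how the libraries are scaled, since the log2 ratio was -0.13 as deposited and 0.15 when the libraries were scaled to equal recovered reads.

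**Figure D2:**
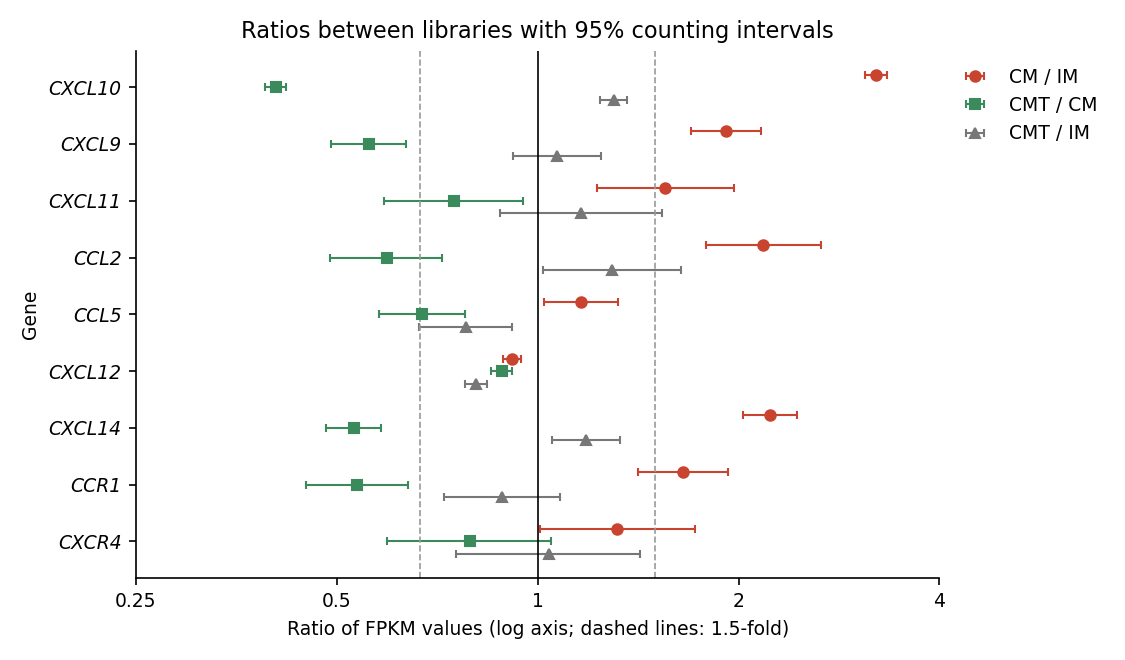
Ratio of FPKM values between libraries for the 9 genes on a log axis, with 95% exact binomial intervals of the recovered reads as bars (too wide for CXCL9, CCL5 and CXCR4) and dashed lines at 1.5-fold in each direction. CM to IM lies above 1 for 8 genes and below 1 for CXCL12 (0.914), and the CMT to IM ratios run from 0.780 to 1.30.

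The receptor CCR1 is carried by monocytes, macrophages and other myeloid cells and binds CCL5 and the CCL3 proteins. Its FPKM was 65.1 for IM, with 107 for CM and 57.6 for CMT, from 239, 537 and 172 reads. CM was above both other libraries. The ratio of CM to IM was 1.65 (interval 1.41 to 1.93), and CMT was 1.86-fold below CM (interval 1.57 to 2.22). CMT and IM differed by less than their counting error, at 0.885 (interval 0.724 to 1.08).

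CXCR4, the receptor of CXCL12, had an FPKM of 67.5 in IM against 88.7 in CM and 70.2 in CMT, with 90, 161 and 76 reads recovered. CM was nominally the highest library. Its ratio to IM of 1.31 had an interval of 1.01 to 1.72, and CMT was 1.26-fold below CM with an interval of 0.956 to 1.68. The recovered length of 531 bases is improbably short for this gene too, so the reads are understated, the intervals are too wide, and the depth behind these ratios is not known. ACKR3, the scavenging receptor that removes CXCL12, was called lower in CM, at 36.9 in the intact, 22.5 in the castrated and 30.1 in the testosterone-treated pool, so the FPKM of CXCR4 relative to ACKR3 was 1.83, 3.94 and 2.33.

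Read as an order of levels within a library, CXCL10 led in all 3 and CXCL11 stood last. In IM the order below CXCL10 was CXCL12, CXCL9, CCL5 and CXCL14, all separated beyond counting error, then CCL2, CXCR4 and CCR1, whose neighbouring intervals overlapped. In CM, CXCL9 stood above CXCL12, CCL2 above CCR1, and CCR1 and CXCR4 overlapped. In CMT, CXCL9 and CXCL12 overlapped, as did each step from CCL2 through CXCR4 and CCR1 to CXCL11. The overlaps that involve CXCL9 or CXCR4 rest on intervals that are too wide. FPKM is per length, and rescaling a whole library cannot change an order within it.

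The 9 genes were then placed within the chemokine system. Of 36 further ligand symbols, 24 were in the files, 16 reached the FPKM minimum, and CCL17 and AMCF-II had no reads in any library. CCL16, a liver chemokine made by hepatocytes, was by far the largest of the ligands found by symbol. Its FPKM was 25030 in IM against 19442 in CM and 16583 in CMT, or 77.7%, 65.6% and 68.8% of their summed FPKM. With CCL16 left out, the other 30 ligands summed to 7170 in IM against 10187 in CM and 7509 in CMT. CXCL10 made up 22.1% of that sum in IM against 49.9% in CM and 27.4% in CMT. CXCL9 held 9.16%, 12.3% and 9.34%. CXCL12 held 10.7%, 6.90% and 8.27%, a smaller share in CM, where its level was within 1.5-fold and the sum was larger.

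**Figure D3:**
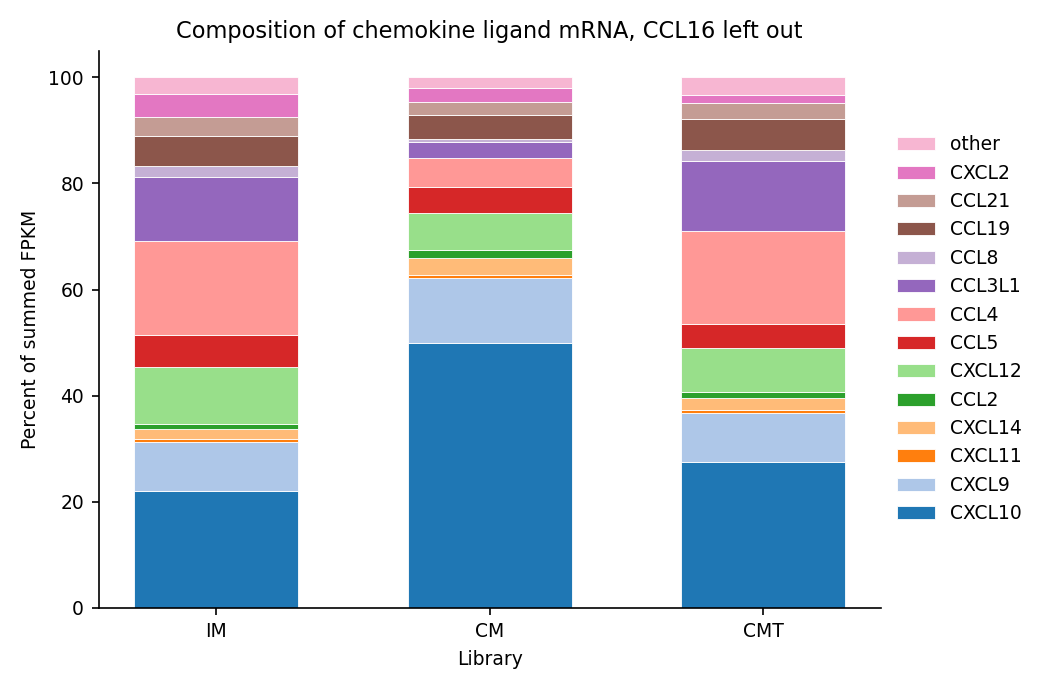
Share of each ligand in the summed FPKM of 30 chemokine ligands found by symbol, with CCL16 left out, in percent per library. CXCL10 takes 22.1% in the intact, 49.9% in the castrated and 27.4% in the testosterone-treated pool, and the blocks of CCL4 and CCL3L1 are smaller in CM.

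Not all CC chemokines had their highest level in CM. Of the 16 further ligands past the minimum, 3 were called higher in CM versus IM and 5 lower, with a median log2 ratio of -0.11. CCL4, a chemokine of activated macrophages and lymphocytes, was at 1271 for IM, with 559 for CM and 1318 for CMT, and CM was 2.27-fold below IM (interval 2.05 to 2.53). CCL3L1, a ligand of CCR1, was at 862, 303 and 984, 2.85-fold lower in CM (interval 2.33 to 3.49). CCL8, a monocyte attractant like CCL2, was at 141, 61.7 and 155, 2.29-fold lower in CM (interval 1.90 to 2.76). CCL2 was below CCL8 in IM and CMT and above it in CM, with an FPKM relative to CCL8 of 0.527 in IM against 2.62 in CM and 0.621 in CMT. The remaining called genes were CCL11 and CCL14, lower in CM (CCL14 as deposited and with median-ratio scaling, but not under the other 3 scalings), and CCL20, CCL27 and CCL28, higher in CM. CCL11, CCL20 and CCL27 rested on at most 14 reads in any library and CCL28 on 14, 34 and 8, and for these 4 genes the interval of CM to IM contains 1.

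Between CMT and CM, 6 of the 16 further ligands were called higher in CMT and 4 lower, with a median log2 ratio of -0.24. CCL3L1 was 3.25-fold (interval 2.65 to 3.996) and CCL4 2.36-fold (interval 2.11 to 2.63) above CM. CXCL2, a neutrophil attractant, went the other way, at 312 in the intact, 259 in the castrated and 125 in the testosterone-treated pool. XCL1, made by T and NK cells, was at 58.7, 73.5 and 36.8. For CMT versus IM, 4 of the 16 were called lower and none higher. CCL3L1 and CCL4 belong to families of near-identical copies, among which reads can be shared, and their values are uncertain for that reason.

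Of 21 further receptors, 20 were in the files and 16 reached the minimum. In CM compared with IM, 1 was called higher and 2 lower, and the median log2 ratio was 0.00. XCR1, the XCL1 receptor of cross-presenting dendritic cells, was at 10.1 for IM, with 17.9 for CM and 11.4 for CMT. CCR7, which guides cells to lymph nodes, was at 15.3, 8.19 and 10.1. In the contrast of CMT with CM, 1 was called higher (CCR3, on at most 18 reads) and 6 lower, with a median of -0.16.

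CXCR6, a receptor of liver-resident lymphocytes, was one of those 6, at 35.4 in IM against 30.4 in CM and 17.8 in CMT. CCR2, the receptor of CCL2, was at 9.48, 14.2 and 8.99, called lower in CMT versus CM. In CM versus IM it was just short of the criterion, with a log2 ratio of 0.58, and passed it under each of the 4 scalings, at 0.60 to 0.86. No reads were recovered for CCR2, so its values carry no interval. For CMT against IM, 2 of the 16 receptors were called higher and 5 lower.

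**Figure D4:**
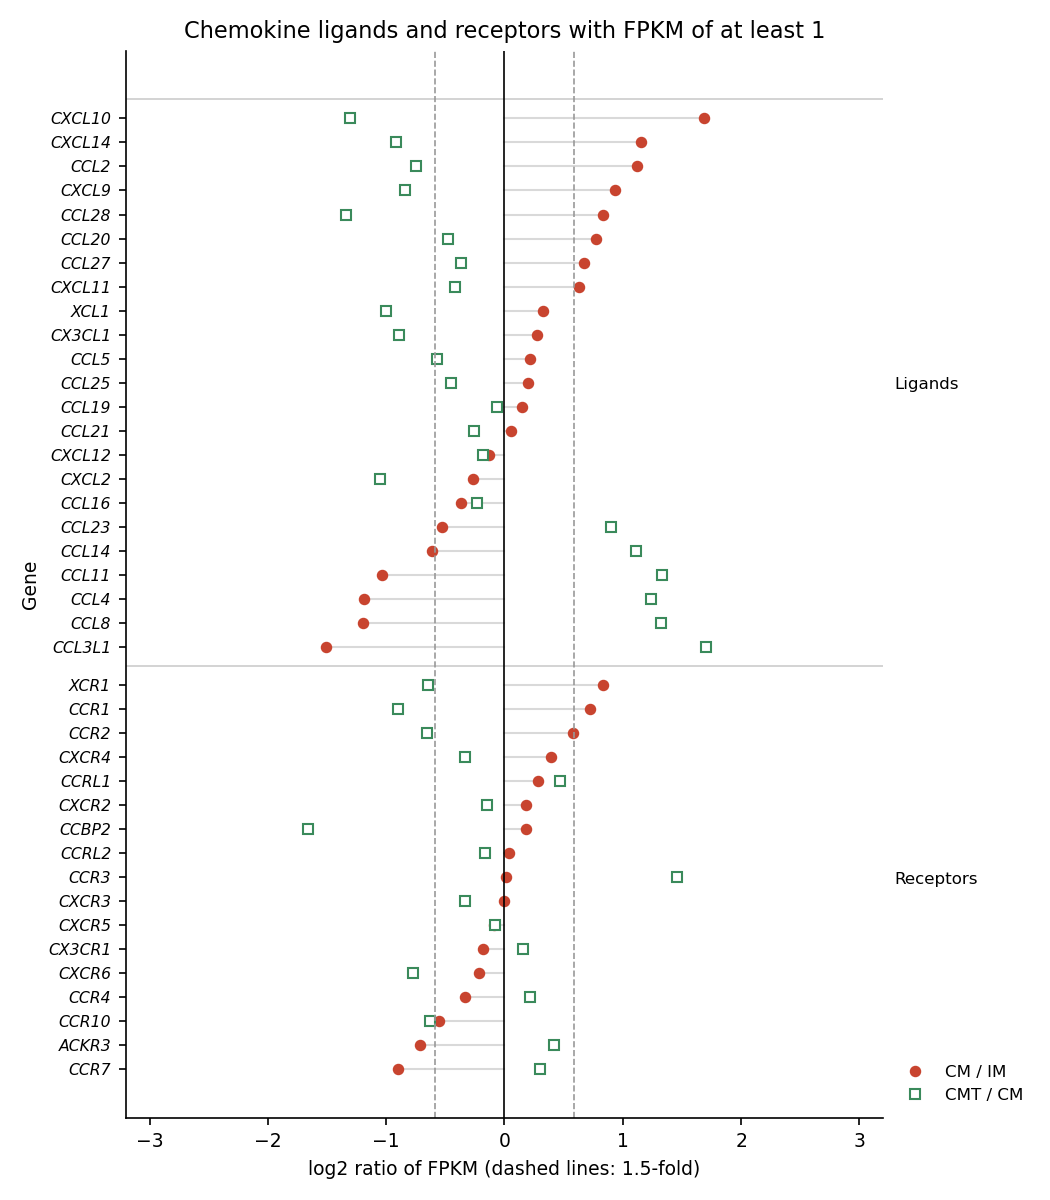
log2 ratio of FPKM for 23 ligands and 17 receptors above the FPKM minimum, ordered by CM to IM (filled circles), with CMT to CM as open squares and dashed lines at 1.5-fold. CXCL10 (1.68) and CCL3L1 (-1.51) mark the ends of the ligands.

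A list of 19 genes, here the interferon gamma list, was examined next. It holds parts of the interferon gamma signal, targets of it like CIITA, GBP1, GBP2, IDO1 and WARS, and genes of type I interferon signalling such as IRF7. The list therefore does not tell the interferon types apart. Of the 19 genes, 17 were in the files and 16 reached the minimum. In CM compared with IM, 5 were called higher and 1 lower, with a median log2 ratio of 0.23. IRF8, a myeloid interferon-regulated factor, was at 197 in the intact, 329 in the castrated and 195 in the testosterone-treated pool. IRF7, which drives interferon production, was at 143, 248 and 145. The targets CIITA and GBP1 were also called higher in CM. SOCS1, an inhibitor of interferon signalling, was lower in CM, at 72.0, 38.3 and 29.99. In CMT compared with CM, none of the 16 was called higher and 6 were called lower, with a median of -0.41. IRF1 was within 1.5-fold in each comparison, at 264, 318 and 231.

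IFNG, the gene of interferon gamma itself, was listed at 0 in IM and CMT and at an FPKM of 4.08 in CM, from 10 reads. Set against the 3 reads that a count of 0 allows per library, that value was 2.45 times the limit in IM and 1.99 times the limit in CMT. With the counting error of CM included, the exact lower bounds of the ratios were 1.65 to IM and 1.34 to CMT. IFNG missed the FPKM minimum and was not called.

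CCL2 is a target of NF-kappa B, a factor that carries signals of TNF and IL1B, and 18 genes of a list of 20 for that axis reached the minimum (19 in the files). In CM compared with IM, 4 were called higher and 7 lower, with a median log2 ratio of -0.18. TNF, the inflammatory cytokine that induces CCL2 in many cells, was at 106 for IM, with 19.0 for CM and 145 for CMT, 5.60-fold lower in CM than in IM (interval 4.14 to 7.69). TNFAIP3 and NFKBIA, feedback inhibitors of NF-kappa B, were at 204, 105 and 156 and at 1539, 901 and 1024, both called lower in CM as deposited. NFKBIA, NFKBIZ, VCAM1, IL1A and, among the receptors, ACKR3 were no longer called in CM versus IM with the libraries scaled to equal recovered reads. IL1B was also called lower in CM, on 11, 3 and 7 recovered reads. Its recovered length of 146 bases is improbably short, so these reads are understated and the depth behind this call is not known. IL18, a cytokine that promotes interferon gamma release, was higher in CM, at 133, 236 and 187. Also called higher in CM were RELB, at 50.0, 92.5 and 66.1, NFKBIE, at 32.2, 56.9 and 38.4, and BIRC3, at 160, 243 and 184. Between CMT and CM, 3 were called higher in CMT (TNF, IL1B and IL1A) and none lower as deposited. TNF had an interval of CMT to CM from 5.67 to 10.5. The intervals of IL1B (0.893 to 23.4) and IL1A (0.378 to 15.3) contain 1. IL1A had 4, 3 and 4 recovered reads, and its interval of CM to IM (0.081 to 3.25) also contains 1. Scaling to equal recovered reads added RELB, NFKBIE and BIRC3 as lower in CMT. CCL2 and TNF were therefore called in opposite directions in both comparisons that involve CM.

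**Figure D5:**
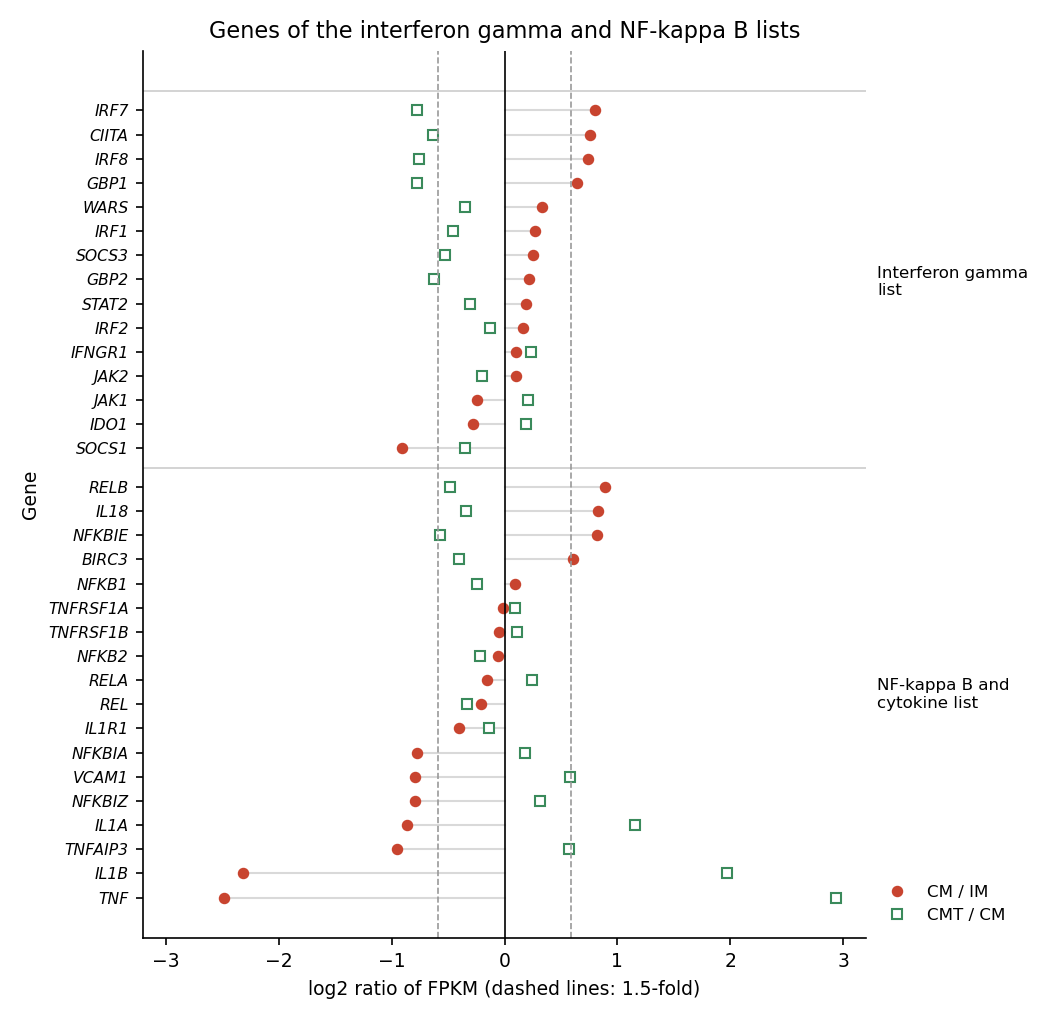
log2 ratio of FPKM for 15 genes of the interferon gamma list and 18 genes of the NF-kappa B and cytokine list, as CM to IM (filled circles) and CMT to CM (open squares), with dashed lines at 1.5-fold. IRF7 lies at 0.80 for CM to IM and TNF at -2.49.

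Next came the genes that act downstream of the receptors. Of 25 genes for chemokine receptor signalling and ligand processing, 21 were in the files and all 21 reached the minimum. In CM compared with IM, 1 was called higher (PIK3CG, a kinase coupled to chemokine receptors) and 1 lower (MMP9, a protease that trims chemokines), with a median log2 ratio of 0.04. PIK3CG had 23, 51 and 18 recovered reads at a recovered length of 479 bases. Its intervals of CM to IM (0.977 to 2.79) and of CMT to CM (0.325 to 1.03) contain 1. DPP4, which inactivates CXCL10 by removing its first residues, was at an FPKM of 1041 in IM against 950.2 in CM and 903 in CMT. For CMT versus CM, 1 was called higher and 2 lower.

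Markers of the leukocytes that these chemokines attract, and of other liver cells, were read beside the chemokines. In CM versus IM, 2 of 14 T and NK cell markers were called higher (LCK and GZMA) and 1 lower (CD247), with a median log2 ratio of 0.45. That count depends on scaling. With equal recovered reads or equal FPKM sums, 9 of the 14 were higher and none lower, the 9 being CD2, CD3D, CD3E, CD8A, LCK, GZMA, PRF1, NKG7 and KLRK1. Of all 15613 features tested, these scalings called 3432 and 3239 higher and 1003 and 1073 lower. As deposited, 1737 of all features were called higher and 1884 lower. In CMT versus CM, 1 of the 14 markers was called higher and 9 lower, CD3D, CD3E and CD8A among the latter, with a median of -0.74. CD247, a signalling chain of the T cell receptor, ran the other way, at 450.0 for IM, with 296 for CM and 513 for CMT. Without it the other markers summed to an FPKM of 828 in the intact, 1105 in the castrated and 690 in the testosterone-treated pool, and with it to 1278, 1401 and 1203. The sum without CD247 was highest in CM, as were the CXCR3 ligands, and its part in the ligand levels was not tested. The 11 macrophage and Kupffer cell markers summed to 18065, 17950 and 19420, with none called higher and 1, MARCO, called lower in CM versus IM. Of 8 neutrophil markers, 5 were called lower in CM versus IM, S100A8 and S100A9 among them, with a median log2 ratio of -1.13. Their sums of 5146, 5552 and 4081 were nearly all FCGR3B, an Fc receptor gene, and without it the others summed to 169, 79.3 and 50.5. Endothelial markers (8, sums of 3966, 3247 and 3691) and stellate cell markers (9, sums of 1553, 1635 and 1378) had 1 and 0 called genes in CM versus IM. Equal recovered reads or equal FPKM sums changed these lists too. LUM, ACTA2 and LRAT of the stellate list were then called higher, and no endothelial marker was called. C1QB of the macrophage list and CSF3R of the neutrophil list were also called higher, and MPO was no longer called lower.

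Among epithelial and blood markers, 3 of 4 cholangiocyte genes (EPCAM, SOX9 and CFTR) were called higher in CM than in IM, beside CXCL14. The fourth, SPP1, had by far the largest FPKM of the list and was not called, with a ratio of CM to IM of 0.897. With SPP1 included, the list summed to 805 for the castrated pool, below the intact (856) and the testosterone-treated pool (1185). Without it the sums were 76.3 (CM), 44.4 (IM) and 49.0 (CMT), so the list gave no single direction. Of 5 B and plasma cell markers, 0 were called in CM versus IM, against 1 of 8 hepatocyte markers, which was lower. With equal recovered reads or equal FPKM sums, 2 of the 5 B and plasma cell markers (MS4A1 and CD79B) were called higher. HBB, the erythroid globin, was at 17158 for IM, with 3399.7 for CM and 5151 for CMT. No marker of these lists was at 0 in all 3 libraries. The part of any cell type in the chemokine values was not tested.

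To find genes with a like pattern, a distance in 2 coordinates, the log2 ratios CM to IM and CMT to CM, was taken over the 12118 other mRNA features whose FPKM reached 10 in every library. Nearest to the mean of CXCL9, CXCL10 and CXCL11 (1.08 and -0.85) were LMNB1, a nuclear lamin, ICOSLG, a ligand of T cell costimulation, LOC100738484, TESC and RACGAP1, at distances of 0.036 to 0.056. A distance under 0.2 was shared by 51 features. CXCL10 (1.68 and -1.31) and CXCL11 (0.63 and -0.42) themselves lay further than 0.2 from this mean, unlike CXCL9 (0.94 and -0.84). The features listed are therefore near the mean and not near each of the ligands. Nearest to CCL2 were EML2, POLA2, ZSCAN2, ICOSLG and GLTPD2, at 0.034 to 0.083, and 42 features lay within 0.2. The pattern rests on 3 libraries, and both ratios share CM.

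Several of these genes lie side by side in the genome, and the order of the RefSeq annotation of assembly Sscrofa11.1 was used to compare neighbours. CXCL9, CXCL10 and CXCL11 stand in 1 cluster with ART3 between CXCL9 and CXCL10. Their log2 ratios of CM to IM were 0.94, 1.68 and 0.63, against 0.24 for SDAD1 and -0.29 for NUP54 on the flanks and 0.19 for ART3. CCL2 stands next to CCL11 and CCL8, with log2 ratios of 1.12, -1.03 and -1.19, which are of opposite sign, although CCL11 rests on 6, 4 and 6 reads. CCL5 (0.22) lies beside CCL16 (-0.36) and CCL14 (-0.61). CCR1 (0.72) lies between XCR1 (0.83) and CCR3 (0.01). CXCL14 stands alone among chemokines, and SLC25A48 next to it, named after its values were seen, was at an FPKM of 44.9 in IM against 128 in CM and 16.2 in CMT.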

How the data were processed

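Per the study's methods, the authors prepared poly-A libraries, sequenced paired reads, checked them with FastQC and mapped them with TopHat to the pig genome Sscrofa 10.2. The counting program and annotation are not given in the sources used here. What the authors deposited for each library is a list of features with their FPKM. Fold changes here are ratios of these FPKM values without rescaling or a pseudocount.

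Reads were recovered for 23090 of the 24277 features above 0 (95.1%), as the smallest whole numbers that fit a length of up to 10000 bases and library divisors of 2.51 (IM), 3.42 (CM) and 2.04 (CMT). A factor common to a gene's 3 counts is lost, so intervals are too wide for genes with an improbably short recovered length. Examples are CXCL9 (225 bases), CCL5 (372), CXCR4 (531), CCL3L1 (141) and IL1B (146). Against 13 mitochondrial genes, 9 recovered lengths lay within 2 bases of the annotation, 2 were 0.5 times and 2 were 3 times as long. Where a recovered length is too long, the reads are overstated and the intervals are too narrow. Recovered lengths of the 9 chemokine genes were not compared with the annotation. Ratio intervals are exact Clopper-Pearson intervals and level intervals are exact Poisson intervals, both at 95%. Levels were called apart in order when these did not overlap.

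Groups followed the sample titles, and no library was left out. The 9 genes and all lists were chosen with earlier results of these data known. From each further list, up to 8 called genes with the largest log2 ratio in CM versus IM or CMT versus CM could be named, besides the receptors CXCR3, CCR2 and ACKR3, the inducers IFNG, IRF1, TNF, IL1B and NFKBIA, and DPP4. CCL16, CCL20, CCL27, VCAM1, BIRC3, marker genes and neighbours were named after their values were seen. Some genes that the rule covers are counted in the lists but not reported by name or plotted. Calls were repeated at a 2-fold threshold, without any minimum or with one of 10 FPKM, after adding 1 FPKM to each value, and under 4 scalings. The scalings were applied to the marker lists after seeing the data. Steps were tested on simulated data. Python 3.11.15 was used with numpy 2.4.6, pandas 2.3.3, scipy 1.17.1 and matplotlib 3.10.9.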

Additional observations from a re-analysis of the deposited data

How the results depend on the processing

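With 1 pooled library per group, no result has a replicate check within these libraries, and no library could be left out. No paired analysis was possible because each group had 1 library. Under all alternatives run, no called value turned its direction. Of 957 single-gene values under alternatives, 92 moved beyond their counting interval, 88 of them under scaling to equal recovered reads or equal FPKM column sums, and 15 values that were not called changed sign. Requiring the counting interval to exclude 1, also with the reads halved, left 6, 5 and 0 of the 9 genes called, in the order CM to IM, CMT to CM, CMT to IM. Calls on few reads are limited by depth.

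For the 9 genes, a 2-fold threshold left 3 called in CM versus IM and 1 in CMT versus CM. Scaling to equal recovered reads and to equal column sums brought their median log2 ratio of CM to IM to 1.002 and 0.98, and the second gave 8 called in CMT versus CM. For CM versus IM, 2-fold left 4 further ligands, 0 receptors, 0 interferon genes, 2 NF-kappa B genes and 1 signalling gene. A minimum of 10 left 4 ligands and 1 signalling gene, and no minimum gave 6 receptors. Equal reads gave 7 NF-kappa B genes and 6 signalling genes, and equal sums also gave 6 of the latter.

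For CMT versus CM, 2-fold left 3 receptors, 0 interferon genes and 1 signalling gene, and a minimum of 10 left 3 receptors and 1 NF-kappa B gene. Equal reads gave 6 NF-kappa B and 5 signalling genes, and equal sums gave 10 interferon, 7 NF-kappa B and 6 signalling genes. For CMT versus IM, 2-fold left 1 ligand, 3 receptors and 0 NF-kappa B genes. A minimum of 10 left 3 receptors and 0 signalling genes, and no minimum gave 7 ligands. The NF-kappa B count was 0 and the signalling count 2 under median-ratio scaling, equal reads and equal sums, and equal reads left 2 ligands. Calls over all features in CMT versus CM were 57.5% higher at a minimum of 10, against 47.3%.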
